A study of Mus musculus with 8 samples.

Results

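Rising windows are 5-kb windows of chromosomes 1 to 19 that gained tags of the Upstate-type H3K9me3 antibody after loss of Setdb1. A window was included where the libraries of *T* = 4d and *T* = 6d each held at least 2 times the tags of *T* = 0, and together held at least 60 tags. Of 494473 windows, 474385 held a tag and 1066 (0.225% of those with a tag) were rising windows. They were therefore chosen on the *T* = 0, *T* = 4d and *T* = 6d values of that antibody, and these values are given as a description without a test. The *T* = 2d library and the Abcam libraries took no part in the choice.

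The cells were *Setdb1* mutant JM8 mouse ES cells of the C57BL/6N strain, with one constitutive null allele (*tm2*), one conditional allele (*tm1c* in the paper, tm1a in the sample labels), and a CreERT2 recombinase expressed from *Rosa26*. The null allele and the recombinase are shared by all libraries, and the lines are clonal. Samples at *T* = 0 were untreated. A treatment with 0.8 µM 4′OHT (4-hydroxytamoxifen, which activates CreERT2) for 48 h converts the conditional allele to a null allele (*tm1d* in the paper, tm1c in the labels), and cells were taken at its end (*T* = 2d) and after further culture without 4′OHT (*T* = 4d and *T* = 6d). The study describes rare cells that escape recombination and some recombination without 4′OHT, neither of which was measured in these libraries. Chromatin was precipitated with the Upstate-type antibody, a gift that resembles an Upstate/Millipore product, at all 4 time points, and with lots 58206 and 638466 of Abcam ab8898 at *T* = 0 and *T* = 6d. There is 1 library for each antibody and time point, hence 8 libraries and no replicates, and every comparison is one between libraries.

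Trimethylation of lysine 9 of histone H3 (H3K9me3) is a mark of silent chromatin, bound by HP1 proteins. It is laid down by Suv39h1 and Suv39h2, mainly at pericentromeric repeats, and by Setdb1, which is brought to retrotransposons and other sites by KRAB zinc finger proteins and their partner Trim28 (KAP1). In ES cells Setdb1 silences endogenous retroviruses, imprinted loci and a number of developmental genes.

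Each Upstate-type library holds 6887819 tags, each library of lot 58206 holds 8503927 and each of lot 638466 holds 12194174, since the libraries of an antibody had been brought to equal size. A tag is an interval of 300 bp in mm9, no position is repeated within a library, and chromosomes 1 to 19 received 97.4% to 97.7% of the tags. The median window held 9 or 10 Upstate-type tags at each time point, 16 tags with lot 58206 and 25 with lot 638466. Chromosome totals of the Upstate-type antibody at *T* = 6d were 0.955 to 1.03 times those of *T* = 0. For comparison, a first set was formed by the 36971 other windows that reached 60 tags over *T* = 4d and *T* = 6d. The second set was the mirror of the rule, 3873 windows (0.816%) with at least 30 tags at *T* = 0 and at least 2 times the tags of both *T* = 4d and *T* = 6d, called falling windows here. The rising windows were 2.80% of all windows that reached 60 tags.

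At *T* = 0 the rising windows held between 2 and 72 Upstate-type tags, with a median of 14. At *T* = 2d they held between 3 and 189, with a median of 25. At *T* = 4d the range was 16 to 240 and the median 44, and at *T* = 6d the range was 14 to 202 and the median 47. The windows thus went from 1.40 times the genome's median to 4.70 times it. They ended slightly below the other windows of 60 tags or more, whose medians were 52, 59, 53 and 54 tags at the 4 time points. The share of rising windows with at least 3 times the genome's median went over the time course from 7.50% (*T* = 0) to 46.8% (*T* = 2d), 86.4% (*T* = 4d) and finally 93.3%.

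The increase was usually moderate. Relative to *T* = 0 the median ratio came to 2.91 (*T* = 4d) and 3.20 (*T* = 6d), and 391 windows (36.7%) reached 3 times *T* = 0 at both times, while 119 (11.2%) reached 5 times. Between *T* = 4d and *T* = 6d tags increased further in 550 windows (51.6%) and decreased in 482 (45.2%). The rule places its limit in a continuous range of values. The 283 rising windows whose smaller ratio was 2 to 2.2 had medians of 17, 29, 40 and 45 tags from *T* = 0 to *T* = 6d, and the 411 windows of 60 tags or more just outside, at 1.8 to 2, had 20, 33, 41 and 46. At the limit on tags, 128 rising windows with 60 to 65 tags had medians of 10, 15, 30 and 33, and 201 windows just below, with 54 to 59 tags, had 10, 14, 26 and 30. Next to the limit on the ratio, chr3:19975001-19980000 (57, 133, 183 and 114 tags) and chr18:35780001-35785000 (37, 88, 118 and 74) were included. On its other side chr4:146930001-146935000 (41, 111, 111 and 81) and chr1:176140001-176145000 (39, 62, 118 and 77) were not. Next to the limit on tags, chr13:3360001-3365000 (7, 15, 46 and 14) and chr5:3945001-3950000 (9, 30, 31 and 29) were included, while chr15:6370001-6375000 (7, 7, 14 and 45) and chr9:7125001-7130000 (12, 22, 29 and 30) were not.

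**Figure D1:**
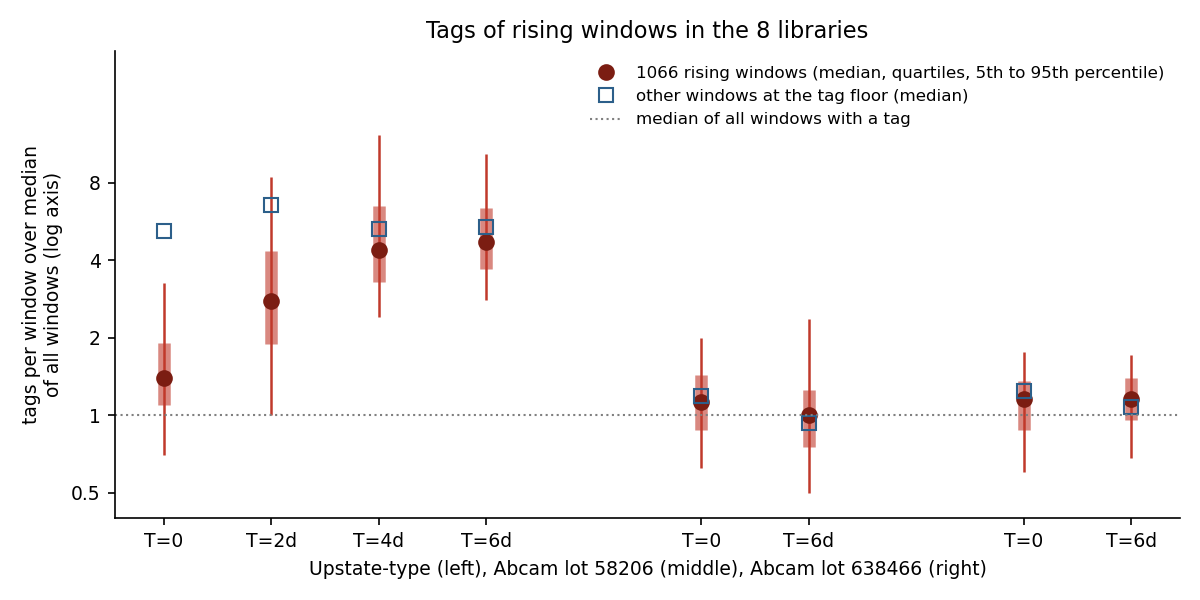
Tags per 5-kb window in each of the 8 libraries, divided by the median of all windows with a tag in that library (log axis). Circles, thick bars and thin lines are the median, quartiles and 5th to 95th percentiles of the 1066 rising windows, and squares are the medians of the 36971 other windows with 60 tags or more; the rising windows climb from 1.40 to 4.70 in the Upstate-type libraries and stay at 1.0 to 1.16 with both Abcam lots.

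The rising windows with the most tags show how large the change could be. The window chr6:128965001-128970000 held 15, 58, 240 and 196 Upstate-type tags in the order of the 4 time points. The window chr7:27455001-27460000 held 13, 135, 240 and 147. Before treatment both were near the rising windows' median of 14 tags, where the genome's median was 10. They held the most tags of any rising window at *T* = 4d. The window chr11:101490001-101495000 instead began with 72 tags, the most of any rising window, and held 189, 200 and 202 afterwards. On chromosome 8 the adjoining windows chr8:131260001-131265000 and chr8:131265001-131270000 held 29, 105, 193 and 139 tags and 44, 89, 192 and 128 tags. The sixth, chr9:92480001-92485000, held 52, 103, 163 and 153. In 4 of these 6 windows *T* = 6d lay below *T* = 4d by more than 20 tags, whereas in the chromosome 11 and chromosome 9 windows the difference was 2 and 10 tags.

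The *T* = 2d library shows how much of the increase was present when 4′OHT was withdrawn. Because *T* = 0 enters both this ratio and the rule, it is described without a test. Tags at *T* = 2d were above *T* = 0 in 937 of the 1066 rising windows (87.9%) and at least 2 times *T* = 0 in 452 (42.4%). The median ratio of these libraries was 1.8, with quartiles of 1.35 and 2.40. Among the other windows of 60 tags or more, where *T* = 0 was not required to be low, the median ratio was 1.16 and 1.54% reached 2. The *T* = 2d library had fewer tags in background windows (2985069 against 3334638 at *T* = 0), that is, in windows with less than 1.5 times the median. With the Upstate-type libraries scaled to these windows, 51.9% of 980 rising windows reached 2 times *T* = 0 at *T* = 2d.

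The increase was partial in most windows at *T* = 2d. Relative to the mean of *T* = 4d and *T* = 6d, a median of 35.2% of the rise was present, with a lower quartile of 15.1%. In 361 windows (33.9%) at least 50% of the rise had been reached, and in 52 (4.88%) *T* = 2d was at or above that mean. In contrast, 129 windows (12.1%) had not gained any tags by *T* = 2d. Tags increased at each of the 3 steps in 421 windows (39.5%).

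Single windows show both extremes. In chr7:114365001-114370000 the Upstate-type antibody gave 15, 62, 44 and 33 tags over time. In chr5:91360001-91365000 it gave 16, 60, 40 and 40, and in chr18:21230001-21235000 it gave 20, 116, 121 and 50. These windows were highest at *T* = 2d, or near their highest, and declined later. At the other end, chr9:26695001-26700000 held 11, 4, 107 and 84 tags, and its neighbour chr9:26700001-26705000 held 14, 7, 84 and 96. The window chr8:64145001-64150000 held 20, 4, 46 and 57. In these 3 windows *T* = 2d was below *T* = 0, and the gain appeared between *T* = 2d and *T* = 4d.

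**Figure D2:**
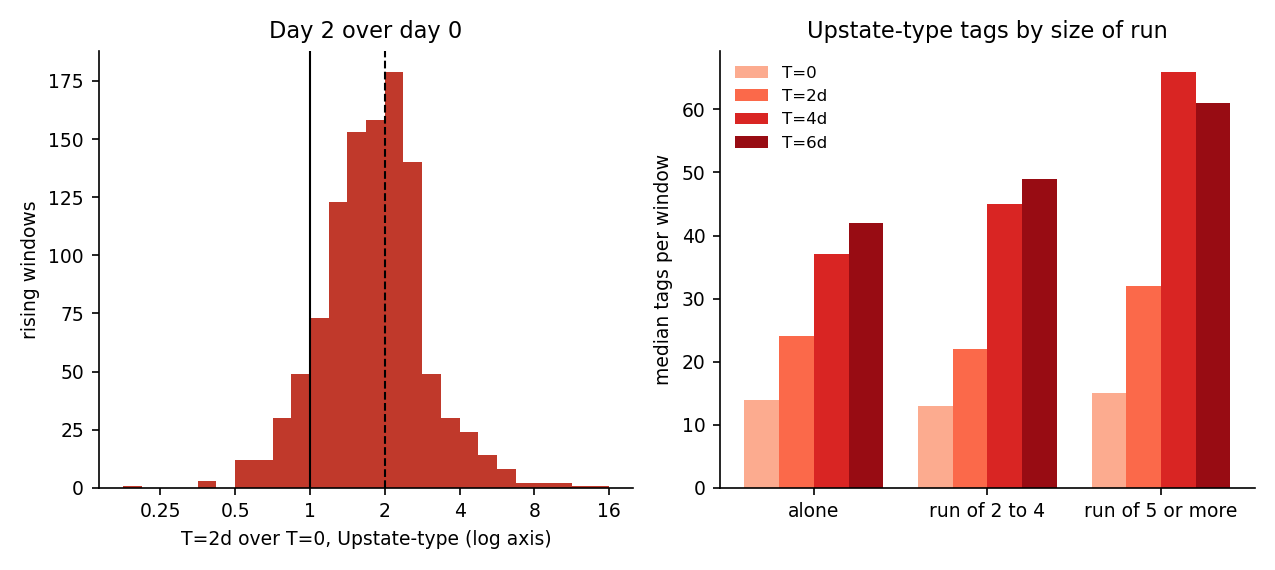
Left, the number of rising windows by the ratio of Upstate-type tags at *T* = 2d to *T* = 0 (log axis; solid line 1, dashed line 2); most lie between 1 and 4. Right, bars give the median Upstate-type tags per window at each time point for windows alone and in runs of 2 to 4 or of 5 or more; the windows of long runs have the highest medians from *T* = 2d on.

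Rising windows lay close together. Another rising window adjoined 503 of them (47.2%) on at least one side, while rising windows make up 0.225% of all windows with a tag. The median distance to the nearest other rising window was 10 kb, and 68.2% had one within 100 kb. Of the falling windows 30.4% adjoined another falling window, although there were more of them. The other windows of 60 tags or more formed far denser blocks, with 90.4% adjoining another. Within 1 Mb 81.6% of rising windows and 94.5% of falling windows had a neighbour of their kind. This order cannot be read as a difference in spread, because the 3873 falling windows outnumber the 1066 rising ones. The spread of rising and falling windows over such distances was not tested.

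Joining rising windows with at most 10 kb between them gave 616 runs. Of these, 453 were windows alone (42.5% of the rising windows), 123 were runs of 2 to 4 with 302 windows, and 40 were runs of 5 or more with 311 windows (29.2%). The 40 long runs were 25 to 120 kb long, with a median of 40 kb. Their windows held medians of 15, 32, 66 and 61 Upstate-type tags over time, against 14, 24, 37 and 42 in windows that stood alone. Of the windows in long runs 55.9% reached 2 times *T* = 0 at *T* = 2d, against 36.2% of those alone. The median share of the rise present at *T* = 2d was instead 37.5% in long runs, 25.2% in runs of 2 to 4 and 40.7% in windows alone.

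Gain also extended beyond the limits of the rising windows. In windows that were not rising themselves, at 5 kb from a rising one, the mean of Upstate-type tags went from 22.1 before treatment to 33.9 on day 6, which is 1.53 times as many. The ratio was 1.36 at 10 kb, 1.24 at 20 kb, 1.10 at 50 kb and 1.02 at 100 kb. Medians went from 17 to 28 tags at 5 kb and from 14 to 16 at 20 kb. At 50 kb the median was 12 at both times, and at 100 kb it was 11 and 10. Within a rising window the tags were not concentrated at one point. At *T* = 6d the densest kb held a median of 30.3% of the window's tags, and 29.7% in the other windows of 60 tags or more. A stretch of at least 1500 bp without a tag in any library lay in 12 rising windows (1.13%), against 0.387% of the other windows of 60 tags or more, 6.48% of all windows with a tag and 7.62% of falling windows.

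On the scale of chromosomes the windows were unevenly spread. Of 2426 stretches of 1 Mb with a tag, 441 held a rising window, 65 together held 50% of all rising windows, and 16 with 10 or more held 243 (22.8%). The stretch with the most was chr18:9000001-10000000, with 34 rising windows. The next were chr8:64000001-65000000 with 29 and chr13:105000001-106000000 with 17. Chromosome 18 had the highest share, with 87 rising windows or 0.498% of its windows with a tag, followed by chromosome 8 with 0.386% and chromosome 9 with 0.365%. The lowest shares were those of chromosome 10 with 0.0830%, chromosome 19 with 0.0950% and chromosome 17 with 0.116%. Taken only over the windows with 60 tags or more, rising ones were 6.82% on chromosome 18 and 1.18% on chromosome 10. The total of Upstate-type tags on chromosome 18 was 1.01 times that of *T* = 0 by *T* = 6d.

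Rising windows also lay nearer to the start of the assembled chromosomes, which is the centromeric end in the mouse. The first 10% of the chromosomes held 18.9% of the rising windows and 9.92% of all windows with a tag. The median relative position was 35.5% of the chromosome length for rising windows, 41.6% for falling windows and 50.4% for all. The first Mb of assembled sequence held 26 rising windows (2.44%, against 0.770% of all windows and 1.63% of falling windows). The last Mb held 12 (1.13%, against 0.795% and 0.904%).

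**Figure D3:**
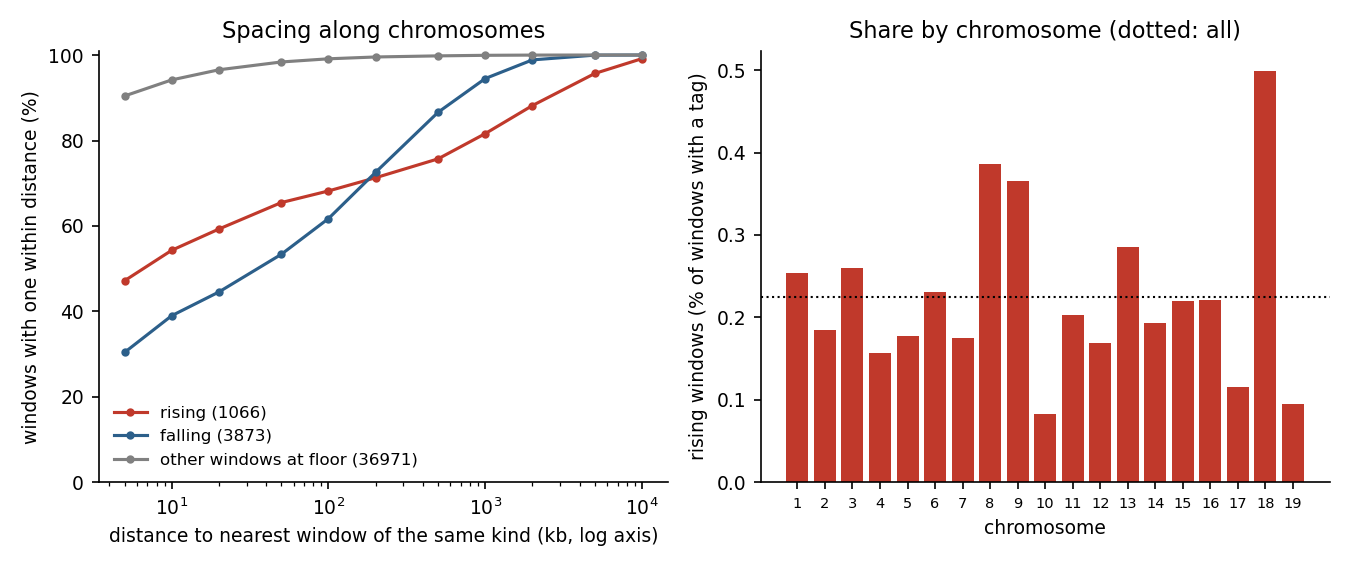
Left, the percent of rising, falling and other windows with 60 tags or more that have another window of the same kind within a given distance in kb (log axis); the rising curve (1066 windows) is above the falling one (3873 windows) up to 100 kb and below it from 200 kb, with no allowance for the size of the sets. Right, rising windows as a percent of the windows with a tag on each chromosome, with a dotted line at 0.225% for all; chromosome 18 stands highest at 0.498%.

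The 5 runs with the most rising windows differed in when they gained tags. The longest, chr8:64115001-64235000, had 19 rising windows over 120 kb, and the whole run held 309, 326, 1320 and 1323 Upstate-type tags over the time course. Its count at *T* = 2d was 1.06 times that of *T* = 0. The run chr9:26685001-26755000 had 12 rising windows and followed the same course, with 147, 127, 852 and 866 tags and a ratio at *T* = 2d of 0.864.

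In 2 others 47.4% and 52.3% of the rise was present at *T* = 2d. The run chr8:34630001-34700000, with 14 rising windows, held 266, 719, 1224 and 1219 tags, and its ratio at *T* = 2d was 2.70. The run chr9:92435001-92505000, also with 14, held 354, 897, 1574 and 1211, with a ratio of 2.53. The fifth, chr6:49345001-49430000 with 11 rising windows, was transient in part. It held 243, 440, 922 and 471 tags, so that *T* = 6d was 0.511 times *T* = 4d.

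Both kinds of timing recurred in the 40 long runs. Under 20% of the rise was present at *T* = 2d in 8 of them and over 50% in 16. The run chr18:21230001-21260000 was the earliest, with 96, 475, 548 and 239 tags, and chr13:75880001-75915000 held 253, 646, 684 and 559. At the late end, chr5:62995001-63075000 with 8 rising windows held 212, 262, 414 and 812 tags, and chr2:69325001-69380000 with 9 held 254, 327, 566 and 960. In these last 2 runs most of the gain came between *T* = 4d and *T* = 6d. The runs outside the first 5 were picked after their values were seen. Chromosome 18 carried 7 of the 40 long runs.

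**Figure D4:**
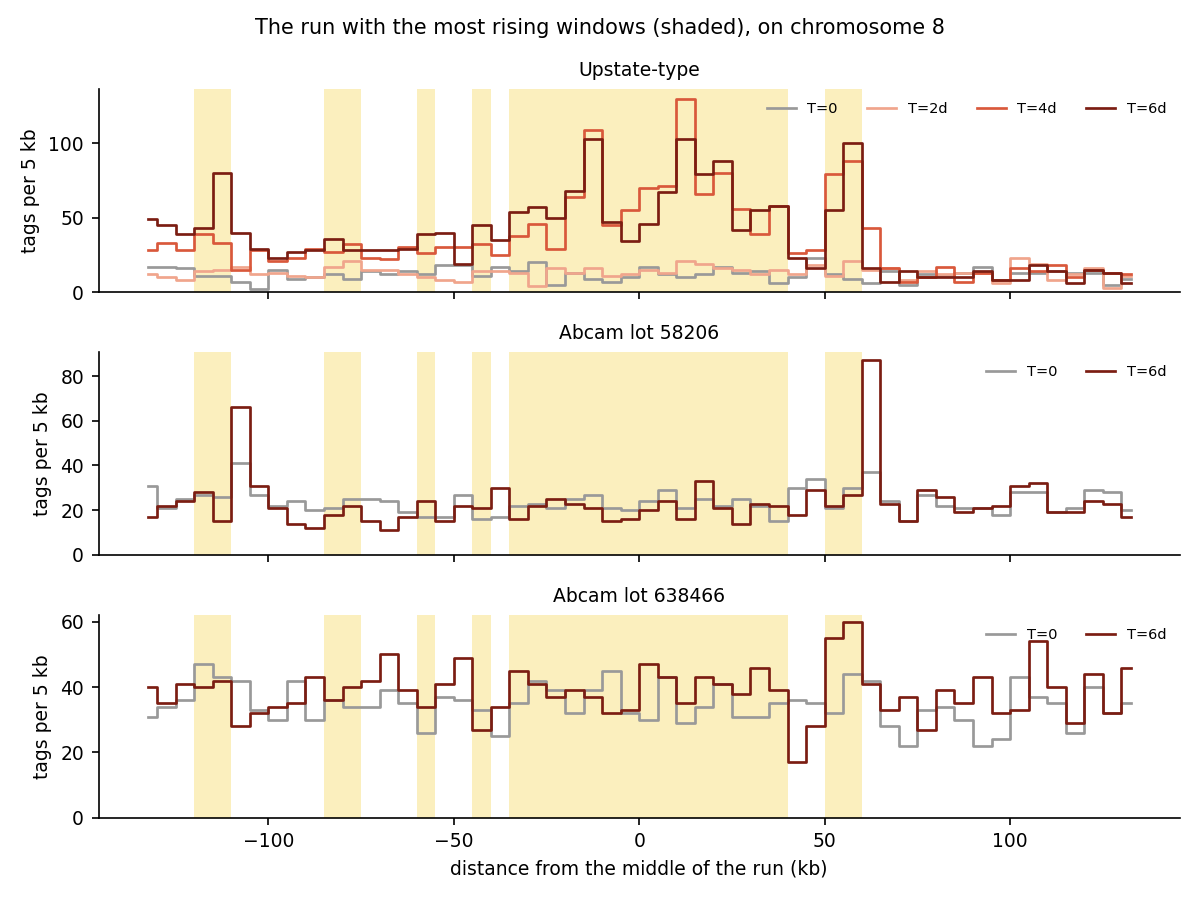
Tags per 5-kb window of each antibody in and around the run with the most rising windows, by distance from its middle in kb, with rising windows shaded and 1 line per time point. With the Upstate-type antibody *T* = 4d and *T* = 6d rise to 130 and 103 tags in the window that is highest at *T* = 4d, where *T* = 0 and *T* = 2d give 10 and 21, and the Abcam lots show no such plateau.

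The Abcam lots give a view of the same windows that is independent of the rule. In the rising windows lot 58206 held a median of 18 tags before treatment and 16 on day 6, and lot 638466 held 29 at both times. The medians of all windows were 16 and 25 at both times. The other windows of 60 tags or more had medians of 19 and 15 tags with lot 58206 and of 31 and 27 with lot 638466. Relative to all windows these are 1.19 and 0.938 times with lot 58206 and 1.24 and 1.08 times with lot 638466, so windows rich in Upstate-type tags as a group lay near the median of the Abcam lots. The rising windows lay there too, at both times. Summed over all rising windows, lot 58206 went from 20452 to 20219 tags, a ratio of 0.989 (0.970 to 1.01). Such intervals are at 95%, come from exact binomial limits and cover counting error only. Lot 638466 went from 30488 to 31423, a ratio of 1.03 (1.01 to 1.05). With the Upstate-type antibody the corresponding sums were 17028 and 57022 tags, a rise that the rule required.

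A two-sided Fisher's exact test of tags inside and outside each window compared *T* = 6d with *T* = 0 in each lot, and a window was called at *P* below 0.01 and a change over 1.5-fold. With lot 58206, 35 rising windows (3.28%) were called higher, and 1.83% of all windows tested were. The other windows of 60 tags or more gave 3.25%. Lower values were called in 18 rising windows (1.69%), against 2.07% of all windows and 4.34% of the other windows of 60 tags or more. With lot 638466, 14 rising windows (1.31%) were called higher, against 1.14% of all windows and 0.170% of the other windows of 60 tags or more, and 19 (1.78%) were called lower, against 2.03% and 4.03%. Tags were more numerous at *T* = 6d in 33.6% of rising windows with lot 58206 and in 52.9% with lot 638466, against 45.1% and 50.5% of all windows. With 1 tag added to each count, the log2 ratio between these times had a median of -0.18 with lot 58206 and 0.06 with lot 638466, where all windows had medians of 0.00 and 0.04.

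No rising window was called higher with both lots and none was called lower with both, and among all windows 0.0146% and 0.535% were. The windows chr2:168055001-168060000 and chr16:10170001-10175000 were called higher with lot 58206 and lower with lot 638466. In the first, lot 58206 gave 66 and 123 tags and lot 638466 gave 33 and 14. In the second the values were 39 and 77, and 51 and 24. Of the 35 windows called higher with lot 58206, 11 held more tags at *T* = 6d with lot 638466, and of the 14 called higher with lot 638466, 2 held more with lot 58206.

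The falling windows show what the same test gave where the antibodies moved together. Lot 58206 went from a median of 34 to 14 tags and lot 638466 from 45 to 25, with sums 0.448 and 0.518 times those of *T* = 0. Of the falling windows 52.4% were called lower with lot 58206 and 46.8% with lot 638466, against 2.07% and 2.03% of all windows. In the other windows of 60 tags or more the sums were 0.893 and 0.857 times *T* = 0. The falling windows had begun at 2.13 and 1.8 times the median of all windows with lots 58206 and 638466, unlike the rising and the other windows of 60 tags or more. The 2 sets of changing windows thus differed in their Abcam level before treatment, and the part of this difference in the calls was not tested.

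The depth set a limit for single windows. A window with the rising windows' median at *T* = 0 was called higher from 39 tags with lot 58206 (2.17-fold) and from 54 tags with lot 638466 (1.86-fold). The 95% interval of the ratio lay wholly under 2-fold in 623 rising windows (58.4%) with lot 58206 and in 636 (59.7%) with lot 638466. In the remaining windows the interval reached 2-fold. An observed ratio of 2 or more was found in 40 windows (3.75%) and 29 windows (2.72%), against 6.42% and 5.41% of all windows tested and 2.30% and 0.649% of the other windows of 60 tags or more. The intervals of the sums above, in contrast, lay wholly under 2-fold.

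**Figure D5:**
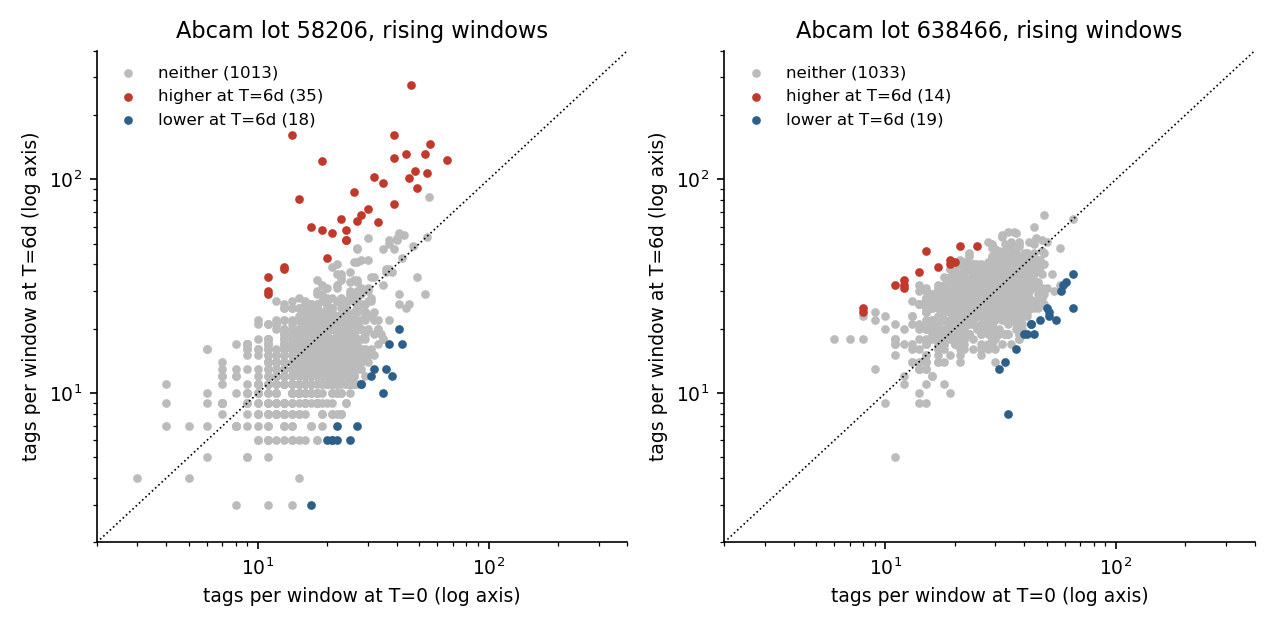
Tags per rising window at *T* = 0 (horizontal) and *T* = 6d (vertical) with Abcam lots 58206 and 638466 on log axes, 1 point per window, with a dotted line of equality and colours for windows called higher or lower by Fisher's exact test. Points spread around the line in both lots, with 35 called higher and 18 lower for lot 58206 and 14 and 19 for lot 638466.

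A few rising windows gained strongly with lot 58206. In chr18:10040001-10045000 this lot gave 14 tags before and 161 after, the Upstate-type antibody 21, 39, 70 and 74, and lot 638466 32 and 39. In chr11:101485001-101490000 lot 58206 gave 46 and 276 tags, the highest value of any rising window, while lot 638466 gave 44 and 39. In chr9:57325001-57330000 it gave 19 and 122, while lot 638466 gave 27 and 20. These windows were picked after their values were seen. The gain with lot 58206 is not particular to them, because 6659 windows of chromosomes 1 to 19 came to at least 3 times the median with this lot only at *T* = 6d. Of the rising windows 32 (3.00%) were among them, against 1.40% of all windows with a tag.

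With lot 638466 the increases were smaller. The window chr9:26725001-26730000, in the late run on chromosome 9, gave 15 and 46 tags (Fisher's exact *P* = 8.8e-05), and the Upstate-type antibody gave 7, 6, 51 and 70 there. Of the 6 windows with the most Upstate-type tags, chr6:128965001-128970000 and chr7:27455001-27460000 gave 25 and 49 tags (Fisher's exact *P* = 0.0071) and 12 and 31 tags (Fisher's exact *P* = 0.0054). Lot 58206 gave 19 and 19, and 18 and 14, in the same windows. The adjoining pair on chromosome 8 held fewer tags at *T* = 6d with lot 638466, with 28 and 25 in the first and 59 and 32 in the second. Only the second was called (Fisher's exact *P* = 0.0061, lower). The chromosome 11 window gave 38 and 33 and the chromosome 9 window 19 and 27, neither of which was called. Of these 6 windows 2 were thus called higher with lot 638466 and 0 with lot 58206, where 1.14% and 1.83% of all windows were. With an adjusted *P* 1 of the 1066 rising windows (0.0938%) was called higher with lot 638466, against 0.0490% of all windows. The called window was neither of these 2.

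Both lots were also fitted together with limma, with the lot as a term, over 237185 windows whose mean of the Abcam libraries, in tags per 1000000, reached the median. The lots are not biological replicates. The *P* values and SE of this fit therefore compare single libraries, not replicated cultures. Of the 676 rising windows tested, 13 were higher at an unadjusted *P* below 0.05 (1.92%, against 1.98% of all). After adjustment 2 were higher at *T* = 6d and 4 were lower at an adjusted *P* (limma, Benjamini-Hochberg) below 0.05 and a change over 1.5-fold, against 0.129% and 1.46% of all windows tested. The higher ones were chr18:10040001-10045000 (log2 change 1.71, SE 0.44, limma adjusted *P* = 0.011) and chr3:144610001-144615000 (1.28, SE 0.28), and both rested on lot 58206. In the latter this lot gave 15 and 81 tags while lot 638466 gave 18 and 26. Its *T* = 0 tags lay below the medians of all windows, 16 and 25. That window thus passed the filter through its *T* = 6d tags, and its call is only a description. The lower ones were chr1:168030001-168035000, chr9:59215001-59220000, chr13:62920001-62925000 and chr18:6680001-6685000, with log2 changes from -0.96 to -0.84. The median log2 change was -0.04 for the rising windows and -0.03 for all. With limma and no lot term 0 rising windows were called higher and 6 (0.888%, against 1.55% of all windows) were at an unadjusted *P* below 0.05. With no limit on tags 0 were called, and 20 (1.88%, against 3.26%) were higher unadjusted.

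In the 40 long runs the summed tags of the lots moved in opposite directions. With lot 58206 the runs held 6960 tags before and 6165 after, a ratio of 0.886 (0.856 to 0.917), and the interval lay below 1 in 17 runs (42.5%) and above 1 in 4 (10%). Of all 40-kb stretches with tags, the median length of these runs, 13.6% lay below 1 and 12.3% above with this lot. The runs themselves were 25 to 120 kb long, so their intervals are not of the same width as those of the stretches. With lot 638466 they held 10051 and 10949 tags, a ratio of 1.09 (1.06 to 1.12), with 9 runs above 1 (22.5%) and 3 below, where 18.2% and 15.8% of all 40-kb stretches were. In windows 50 to 150 kb from these runs the ratios were 0.927 (0.911 to 0.943) with lot 58206 and 1.0 (0.990 to 1.02) with lot 638466. In the other windows of 60 tags or more they were 0.893 and 0.857. With lot 58206 the runs thus decreased about as much as these windows. In the long runs lot 638466 went from 26.2 to 28.5 tags per window. The mean of the Upstate-type antibody, which the rule required to rise in their rising windows, went from 18.2 to 60.5. Runs of 2 to 4 rising windows, with 302 windows, had ratios of 1.06 (1.02 to 1.10) with lot 58206 and 1.02 (0.991 to 1.05) with lot 638466. Their median log2 ratio with lot 58206 was -0.16, with medians of 18 and 16 tags. The sum above 1 with this lot thus came from a minority of windows. Among these were chr11:101485001-101490000 with 46 and 276 tags and chr18:10040001-10045000 with 14 and 161. Windows that stood alone had ratios of 1.0 (0.972 to 1.03) with lot 58206 and 0.991 (0.967 to 1.02) with lot 638466.

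With both lots 2 of the 40 long runs had intervals above 1, and 3.88% of all 40-kb stretches did. The run chr9:92435001-92505000 went from 226 to 328 tags with lot 58206 (1.45, 1.22 to 1.73) and from 345 to 424 with lot 638466 (1.23, 1.06 to 1.42). The run chr5:62995001-63075000 went from 196 to 246 (1.26, 1.04 to 1.52) and from 294 to 415 (1.41, 1.21 to 1.64). In the former, the lot 58206 increase lay wholly in 2 windows, chr9:92435001-92440000 with 53 and 131 tags and chr9:92440001-92445000 with 11 and 35. Without these 2 windows, left out after seeing the data, the run gave 162 tags at both times with lot 58206. Intervals lay below 1 with both lots in 2 runs, against 5.29% of all 40-kb stretches. In 4 runs lot 58206 was below 1 and lot 638466 above, which was the case in 0.307% of the stretches. The longest run gave 551 and 519 tags with lot 58206 (0.942, 0.834 to 1.06) and 842 and 941 with lot 638466 (1.12, 1.02 to 1.23). Its ratio with the Upstate-type antibody, on which the rule chose its rising windows, was 4.28.

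Windows that gained early with the Upstate-type antibody were compared with those that gained later. Among the 452 windows with at least 2 times *T* = 0 at *T* = 2d, the sums of *T* = 6d over *T* = 0 were 1.01 (0.976 to 1.04) with lot 58206 and 1.05 (1.02 to 1.07) with lot 638466. Among the 129 windows without a gain at *T* = 2d they were 0.986 (0.932 to 1.04) and 1.05 (1.004 to 1.10). The intervals of these 2 classes overlapped with each lot. The 485 windows in between had 0.973 (0.945 to 1.0) and 1.01 (0.989 to 1.04). With lot 58206, 23 of the 35 windows called higher (5.09% of their class) belonged to the first class, 12 (2.47%) to the middle one and 0 to the last, beside 1.83% of all windows. With lot 638466 the same classes held 8 (1.77%), 5 (1.03%) and 1 (0.775%) of the windows called higher, beside 1.14% of all windows.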

How the data were processed

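The authors mapped tags uniquely with at most 1 mismatch, equalised the number of tags within each antibody, extended tags to 300 bp and deposited their mm9 intervals, without strand. The aligner is not given in the sources used here. The deposited values are positions, counted here by interval midpoint in 5-kb windows (Python 3.11.15, scipy 1.17.1, numpy 2.4.6, pandas 2.3.3). Groups follow the time point and antibody in the labels. Intervals have a confidence level of 95%. limma 3.58.1 (R 4.3.3, eBayes with trend) used log2(tags per 1000000 + 0.5). Tests were tried on simulated data. Figures were drawn with matplotlib 3.10.9.

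The members and lists were chosen with earlier results of these data known. Named are the 6 windows with the most tags at *T* = 4d and *T* = 6d, the 5 runs with the most members, windows called in both lots, the 3 highest and 3 lowest at *T* = 2d relative to later times, and those at the limits of the rule. Alternatives varied the windows, fold, floor, scaling, filter, pseudocount and *P* limit. The reference genome at hand is of another build, so genes and sequences at these positions were not used here. Control cells and inputs were not analysed here, and 0 columns were set aside.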

Additional observations from a re-analysis of the deposited data

Results flagged for a closer look

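In the 40 runs of 5 or more rising windows, the Abcam lots moved in opposite directions between *T* = 0 and *T* = 6d, with summed tags of 0.886 times *T* = 0 for lot 58206 and 1.09 times for lot 638466. In windows 50 to 150 kb from these runs the ratios were 0.927 for lot 58206 and 1.0 for lot 638466. Relative to those windows the runs had 0.956 and 1.08 times *T* = 0. The difference between the lots itself was not tested, since each has 1 library per time point.

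Chromosome X was left out by the rule. On it, 22 windows met the same limits, which is 3.38% of its 651 windows with 60 tags or more, and 2.80% of such windows on chromosomes 1 to 19 did.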

How the results depend on the processing

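With the tag floor scaled to the window length, the number of rising windows was 5971 with 2-kb windows (floor of 24 tags) and 380 with 10-kb windows (floor of 120). In 5-kb windows it was 391 at 3 times *T* = 0 and 430 with a floor of 100 tags. Under these settings the share with at least 2 times *T* = 0 at *T* = 2d was 51.6%, 37.4%, 58.8% and 53.0%, and the share with an adjoining rising window was 31.5%, 50.5%, 54% and 59.1%. Scaling to background windows gave 51.9% at *T* = 2d. Without the 5 runs with the most members, chosen after seeing the data, 44.0% adjoined another. Calls of higher values with 2-kb windows were 1.14% for lot 58206 and 0.553% for lot 638466, against 0.970% and 0.489% of all such windows. With an adjusted *P* they were 2.72% for lot 58206 and 0.0938% for lot 638466, that is 1 window, against 0.727% and 0.0490% of all. The limma count for both lots was 0 with a filter at 2 times the median, 0 without a filter and 0 without the lot as a term. At an unadjusted *P* below 0.05, limma gave 1, 20 and 6 rising windows higher under these settings, which are 3.45%, 1.88% and 0.888% against 0.00972%, 3.26% and 1.55% of all windows tested. With a pseudocount of 2 the shares were 0.740% and 0.143%. Relative to windows 50 to 150 kb away, the summed tags of lot 58206 in long runs were 0.956 times *T* = 0. The median log2 ratio of lot 58206 was -0.22 with 10-kb windows, -0.32 with 100 tags and -0.11 with the Abcam libraries scaled to background windows. The other 40 values stayed within the error of the reported value, or within 1.5 times it for counts. Each library is single, so no library could be left out. The limma fit pairs the libraries by lot, and the fit without the lot term is the unpaired one.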
